A study of Mus musculus with 3 samples.

Results

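Glycolysis turns glucose into pyruvate, and lactate dehydrogenase turns that pyruvate into lactate. The transcription factor HIF-1, whose alpha subunit is broken down when oxygen is plentiful, switches on many glycolytic enzyme genes together with genes for angiogenesis, acid handling and mitophagy. The dental papilla, the mesenchymal core of the tooth germ, is a growing tissue that becomes vascularised while its outermost cells turn into dentin-secreting odontoblasts. The genes described here are 33 genes of glycolysis and of the hypoxia response, chosen by symbol and ordered by their place in the pathway. Of these, 31 had at least 1 probe set annotated to that symbol alone, with 70 probe sets among them, out of 18194 genes and 45101 probe sets on the array. No such probe set was found for Gpi1 and Eno1, which were not analysed here.

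RNA came from dental papillae of ICR mice at embryonic day 16 (E16), embryonic day 18 (E18) and postnatal day 3 (P3). Papillae were separated with enzyme from the first molar germs of the mandible, and more than 20 were pooled for each RNA sample. RNA was labelled with biotin after 2-cycle amplification (a step that copies the transcripts again before labelling) and hybridised to 1 oligonucleotide array per stage. The labels name no treatment or genetic change, and the 3 groups differ by age alone. With 1 pooled sample per stage there are no replicates, no test between stages is possible, and every difference below is between 2 arrays.

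The deposited value of a probe set is a ratio, its signal divided by the middle of its own signals on the 3 arrays, so that the middle array reads 1. Ratios compare stages within a gene and say nothing of one gene's level against another's. A difference was counted when at least 1 of its 2 arrays reached a floor of 82 signal units, and a lower side was set to that floor, which makes the difference a bound ("at least"). Signals for this step were recovered from the ratios and may be understated. Each gene is given by its brightest probe set, the one with the highest mean recovered signal, and "called" means at least 2-fold different. On this basis 26 of the 31 genes reached the floor on all 3 arrays, and Eno2 and Slc16a3 on none. Between measured probe sets of the same gene the log2 differences had an SD of 0.81 (E18 against E16), 0.67 (P3 against E18) and 0.71 (P3 against E16) over 10 of these genes with several probe sets measured on both arrays, against 0.61, 0.54 and 0.61 over all genes. An error common to a whole array would not appear in it. The median of 18 probe sets for RNA spiked into the samples, relative to E16, was 2.17 at E18 and 1.04 at P3. Its part in the E18 values was not tested.

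Transcription factors and other markers of dental mesenchyme were at or above the floor for 12 of 12 genes on each array. At E18 against E16, 7 of the 12 were called lower and 1 higher (median -1.54), against 8.14% and 8.1% of all genes. Odontoblast markers had a summed recovered signal of 2704 at E16, 11126 at E18 and 28001 at P3. At P3 against E16, 6 of 8 were called higher and 1 lower, against 6.57% and 15.6% of all genes. Epithelial markers were also present, with 12 of 14 at or above the floor at each stage. Their sum was 8399 at E16, 25200 at E18 and 13200 at P3. Their mean ratio, 0.854, 2.12 and 2.14, was not lower at P3 than at E18, with Enam alone at 17.5 at P3. Markers of dividing cells summed to 24811, 21197 and 5755, macrophage markers to 2155, 4342 and 8471, erythroid markers to 1792, 424 and 360, and endothelial markers to 3898, 1931 and 2364. Cartilage markers summed to 1585, 1874 and 2048, with Col2a1 at or above the floor at P3 alone, and skeletal muscle markers to 360, 217 and 325, with at most 2 of 8 at or above the floor. All these sums weight each gene by its recovered signal, which may be understated. In these pooled tissues, fewer cells of a type and less RNA per cell cannot be told apart. The 3' over 5' signal of actin, which is higher where RNA is degraded or labelling is short, taken relative to E16, was 3.87 at E18 and 2.46 at P3.

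From E18 to P3, 7 of the 16 measured genes from glucose uptake to lactate formation were called lower and 0 higher. Ldha, the lactate dehydrogenase subunit that favours lactate formation, was 6.06-fold lower at P3, the glucose transporter gene Slc2a1 5.70-fold, the phosphofructokinase gene Pfkl 5.27-fold and the triose phosphate isomerase gene Tpi1 3.61-fold. Of 28 measured genes, 11 were called lower and 1 higher, a share lower of 39.3%, against 11.8% of all genes lower and 4.07% higher. The median log2 difference was -0.84, against -0.15 over all genes. The exception was Pdk4, which encodes a kinase that shuts off pyruvate dehydrogenase and was 5.18-fold higher. After quantile normalization 8 were lower, with Aldoa, Pdk1 and Ndrg1 no longer called, and the median was -0.43. In that setting 879 of 12118 of all genes were lower, with a median of 0.03. Genes of all kinds with high recovered signals, which may be understated, were more often lower at P3. Among genes with a mean recovered signal of at least 1000, 8 of 13 members were called lower (median -1.48), against 23.3% of 2118 genes (median -0.53). The count of 11 became 4 of 18 measured when probe sets that can detect several transcripts were left out, where 1023 of 10437 genes were lower.

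From E16 to E18 the genes went both ways. Of 29 measured, 6 were called higher and 3 lower, against 8.1% and 8.14% of all genes, and the median was 0.14, against -0.04. The 6 higher were Slc2a1, the pyruvate dehydrogenase kinase genes Pdk1 and Pdk4, and the hypoxia targets Ankrd37, Ndrg1 and Higd1a. The 3 lower were the transporter gene Slc2a3, Pfkl and Ldhb. Taking the median over a gene's probe sets left 2 of the 6 higher, where 737 of 12057 of all genes were higher. Leaving out probe sets that can detect several transcripts gave 2 higher and 1 lower of 19, against 740 and 973 of 10387 genes. None of the 3 lower calls was kept, and Slc2a1 was now the lower one. Doubling the floor ended the calls of Pdk4 and Ankrd37. After median scaling, 7 were higher and 2 lower, against 1136 and 759 of 11820 genes.

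Over the whole interval from E16 to P3, 8 of 29 genes were called lower and 1 higher, against 15.6% and 6.57% of all genes, with a median of -0.43 against -0.17. The 8 were Slc2a1, Slc2a3, Pfkl, Tpi1, Pgk1, Pkm, Ldha and Ldhb, and the 1 higher was Pdk4. Of the 9 hypoxia targets 0 were called in either direction (median -0.10), and 8 of the 20 measured genes of uptake, enzymes and pyruvate fate were lower (median -0.75). The share of these calls that were lower depended on scaling, with 6 lower and 2 higher after either quantile normalization or median scaling. Over all genes, 1287 of 12188 were lower and 1216 higher after quantile normalization, and 1181 of 12341 and 1260 after median scaling. Under both, Slc2a1 and Ldhb were no longer called, and the hypoxia target Ndrg1 was called higher (1.18 and 1.23 on the log2 scale, against 0.94 as deposited). There were 3 lower of 19 without probe sets that can detect several transcripts, close to the share over all genes (1696 of 10538). These comparisons share arrays and are not independent of each other.

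Across the 3 stages, 17 of the 29 genes had their highest value at E18, 10 at E16 and 2 at P3, against 33.6%, 41% and 25.4% of all genes. The lowest value was at P3 in 18 genes (62.1%), against 44.5% of all genes. The 2 genes highest at P3 were Pdk4 and Egln1, and Egln1 differed little between stages. Epithelial markers were also highest at E18 in 9 of 14 genes, but lowest at E16 in 6 and at P3 in 8. Of 13 measured, 10 were called higher at E18 than at E16, against 8.1% of all genes. At P3 against E18, 10 of 13 were lower and 2 higher, against 11.8% and 4.07%. The 2 higher were the enamel genes Amelx (4.14-fold) and Enam (at least 11.4-fold). The part of epithelial cells in the E18 maximum was not tested.

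**Figure D1:**
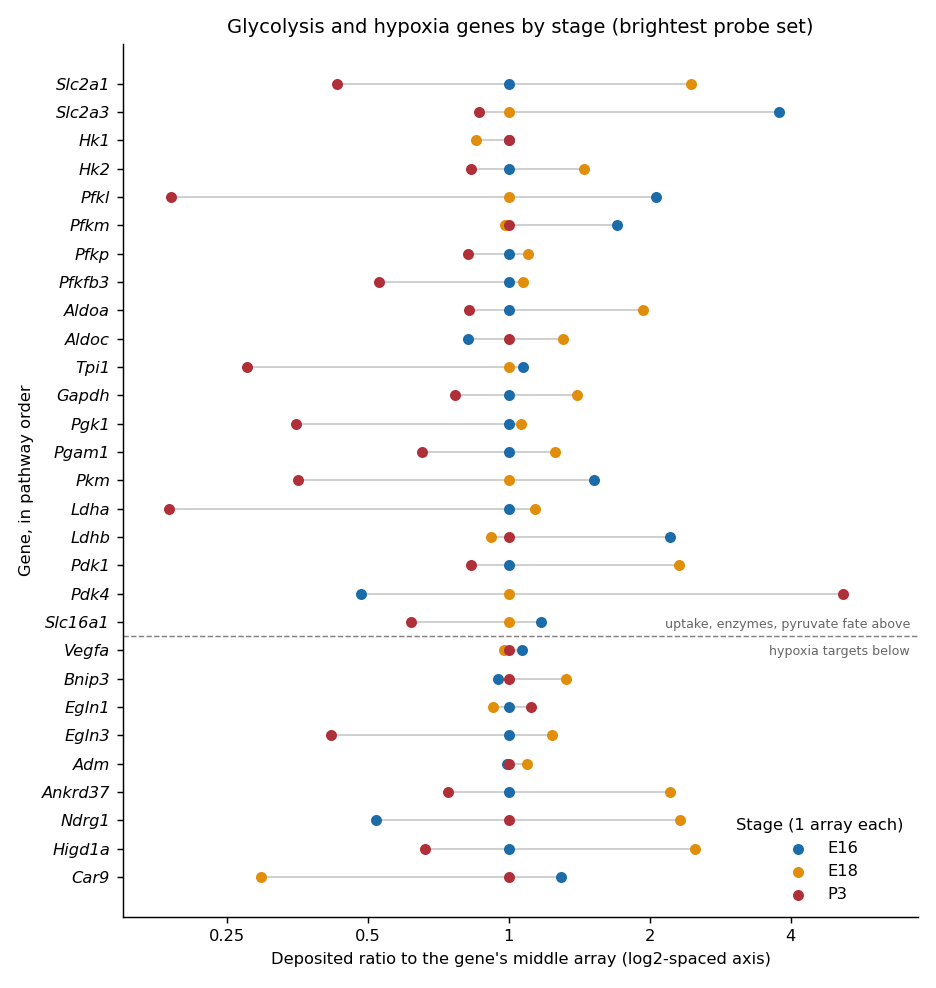
Deposited ratio (horizontal, log2-spaced axis, 1 is the gene's middle array) of the brightest probe set of each of the 29 measured genes, in pathway order, with 1 point per stage, no replicates and no floor applied. The P3 point lies farthest left in 18 genes and the E18 point farthest right in 17; Pdk4 runs the other way, from 0.483 at E16 to 5.18 at P3.

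Glucose enters the cell through facilitative transporters, of which Slc2a1 (GLUT1) is the widespread form and Slc2a3 (GLUT3) the one known from neurons and embryonic tissue. For Slc2a1 the ratios were 1 at E16, 2.46 at E18 and 0.431 at P3. The E18 array was thus highest and the P3 array lowest. A second Slc2a1 probe set read 1, 1.02 and 0.295, and the other 2.42, 1 and 0.391, with P3 below the floor. All 3 were lowest at P3, by 5.70-fold, 3.46-fold and at least 2.02-fold against E18, but the E18 difference of the brightest (2.46-fold higher) was 1.02-fold by the second and turned to 2.42-fold lower by the other. For Slc2a3 the ratios were 3.79, 1 and 0.865, so that its difference lay between E16 and E18. At E18 it was 3.79-fold lower than at E16, at least 3.77-fold by a second probe set, and 1.16-fold lower again at P3. The other 2 Slc2a3 probe sets were below the floor on all 3 arrays.

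Hexokinase traps glucose in the cell as glucose 6-phosphate. Hk1, the widespread form, had ratios of 1.001, 0.853 and 1, and no difference above 1.17-fold. Hk2, the inducible form and a known HIF-1 target, had ratios of 1, 1.45 and 0.830. It was 1.45-fold higher at E18 and then 1.75-fold lower at P3, both under 2-fold. Neither hexokinase gene was called at any step.

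Phosphofructokinase commits fructose 6-phosphate to glycolysis and is built from liver (Pfkl), muscle (Pfkm) and platelet (Pfkp) type subunits. Pfkl had ratios of 2.06, 1 and 0.190, a stepwise decrease of 2.06-fold and then 5.27-fold, 10.9-fold in all. A second probe set gave 3.20, 1 and 0.464 (6.89-fold from E16 to P3), but the other gave 1, 1.42 and 0.848 (1.18-fold). The size of the Pfkl difference therefore depended on the probe set. Pfkm had ratios of 1.71, 0.980 and 1, and was 1.74-fold lower at E18 and level from then on. Pfkp had ratios of 1, 1.10 and 0.819, and its other 2 probe sets were below the floor. Pfkfb3 makes fructose 2,6-bisphosphate, the activator of phosphofructokinase, and had ratios of 1, 1.07 and 0.529. Its P3 signal was below the floor, so the decrease from E18 was at least 1.78-fold, while a second probe set that reached the floor at P3 alone was at least 1.05-fold higher. Of the 4 genes at this step, Pfkl alone was called.

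Aldolase splits the hexose into triose phosphates, and triose phosphate isomerase interconverts them. Aldoa, the main aldolase of most tissues, had ratios of 1, 1.94 and 0.821. It was highest at E18 by all 5 of its probe sets, by 1.89-fold to 2.48-fold against E16 and 1.85-fold to 3.38-fold against P3. All 5 are of a kind that can also read near-identical sequences. Between E16 and P3 Aldoa differed little, from 1.79-fold lower to 1.06-fold higher. Aldoc, the brain-type aldolase, had ratios of 0.817, 1.30 and 1. It too was highest at E18, by 1.60-fold against E16. Tpi1 had ratios of 1.07, 1 and 0.277, level before birth and 3.61-fold lower at P3 than at E18, and 2 further probe sets gave 5.01-fold and 4.46-fold. Its probe sets agreed in size, and the P3 array was lowest in each.

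The pay-off steps regain ATP from the triose phosphates. Gapdh, which oxidises glyceraldehyde 3-phosphate and is often used as a reference gene, was represented by quality-control probe sets placed along its transcript. The middle one had ratios of 1, 1.40 and 0.769, the 5' one 1, 0.927 and 1.57, and the 3' one 1, 1.32 and 0.557. The 3' one was below the floor by its recovered signal, which may be understated. The 5' probe set was highest at P3, where the other 2 were lowest, so the direction of Gapdh between E18 and P3 depended on position. The 3' over 5' signal of Gapdh, relative to E16, was 1.42 at E18 and 0.355 at P3, below 1 at P3 where that of actin was above 1.

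Pgk1, phosphoglycerate kinase, had ratios of 1, 1.06 and 0.352. It was 3.02-fold lower at P3 than at E18, and 1.80-fold and 6.39-fold by its other 2 probe sets. Each of the 3 had its lowest value at P3. After quantile normalization, Pgk1 at E18 against E16 turned from 0.087 to -1.60 on the log2 scale, and P3 against E16 moved from -1.51 to -2.74. That step ranks recovered signals, which for Pgk1 were 5464 at E16 and 5803 at E18 and may be understated. The cause of the change was not tested. Pgam1, phosphoglycerate mutase, had ratios of 1, 1.26 and 0.652, a difference of 1.93-fold from E18 to P3 that stayed just under the threshold. Eno2, the neuronal enolase, was below the floor on all arrays. Pkm, pyruvate kinase, had ratios of 1.52, 1 and 0.355. It was lower at both steps, by 1.52-fold and then 2.82-fold, and 4.29-fold in all.

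**Figure D2:**
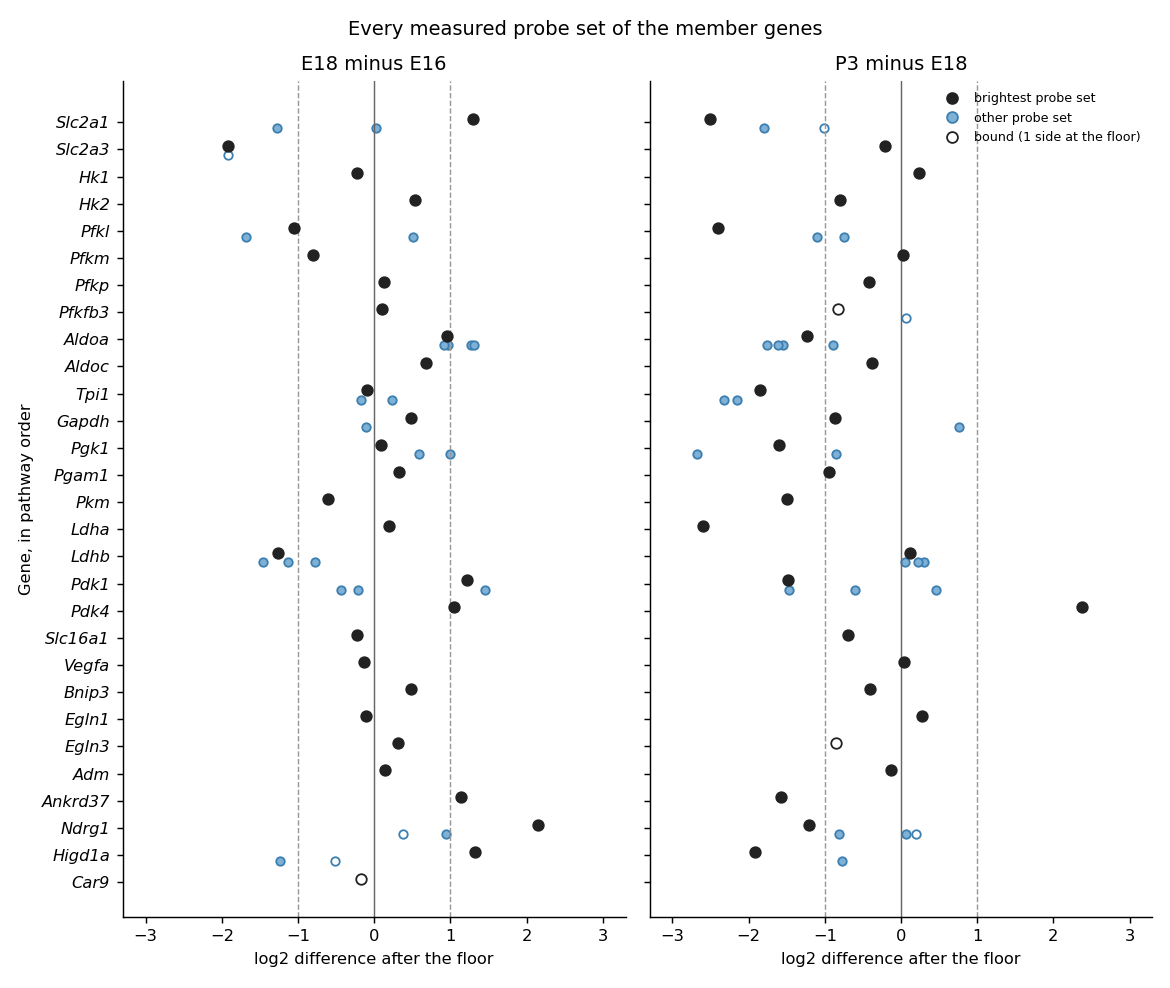
Log2 difference after the floor (horizontal) of every measured probe set of the 29 genes, E18 minus E16 on the left and P3 minus E18 on the right; black points are the brightest probe set, blue ones the others, open ones bounds, and dashed lines mark 2-fold. Probe sets of Slc2a1, Aldoa, Tpi1 and Pgk1 lie on the negative side on the right, while those of Slc2a1, Pfkl, Pdk1 and Higd1a lie on both sides of 0 on the left.

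The fate of pyruvate is set by lactate dehydrogenase, by pyruvate dehydrogenase and its kinases, and by the monocarboxylate carriers that move lactate across the membrane. Ldha had ratios of 1, 1.14 and 0.188. It was nearly level before birth and 6.06-fold lower at P3 than at E18, by its only probe set, of a kind that can detect several transcripts. Ldhb, the subunit favouring pyruvate formation, had ratios of 2.21, 0.918 and 1, and its 4 probe sets were lower at E18 against E16 by 1.72-fold to 2.76-fold and 1.04-fold to 1.24-fold higher at P3 than at E18. The Ldha and Ldhb differences thus lay at different steps. Within the P3 array the Ldha ratio was below its E16 ratio by 5.31-fold and that of Ldhb by 2.21-fold.

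Pdk1, a HIF-1 target among the pyruvate dehydrogenase kinases, had ratios of 1, 2.32 and 0.830. It was 2.32-fold higher at E18 and 2.79-fold lower again at P3, and a second probe set gave 2.73-fold and 2.76-fold. The other 2 probe sets were lower at E18, by 1.35-fold and 1.16-fold, and at P3 against E18 they were 1.37-fold higher and 1.52-fold lower. Pdk4, a kinase known to be induced by fasting and by fatty acids, had ratios of 0.483, 1 and 5.18. It was higher at both steps, by 2.07-fold and 5.18-fold, and 10.7-fold in all, by its 1 probe set. With the floor doubled, the first step was no longer called (0.16 on the log2 scale). It was the 1 member called higher at P3 against either earlier stage. Slc16a1 (MCT1), a carrier for lactate and pyruvate, had ratios of 1.17, 1 and 0.619, and was 1.61-fold lower at P3 than at E18. Slc16a3 (MCT4), the lactate exporter of glycolytic tissue, was below the floor on all arrays.

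**Figure D3:**
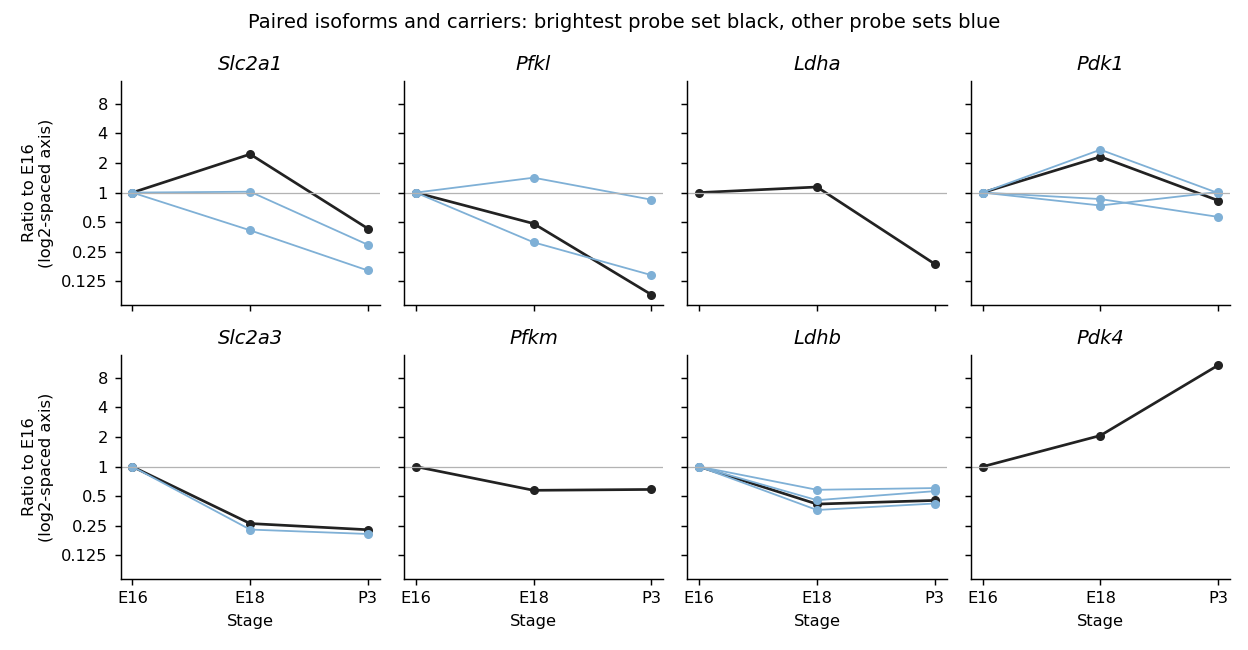
Ratio to the E16 array (vertical, log2-spaced axis) at the 3 stages for pairs of related genes, with the brightest probe set in black and other probe sets that reached the floor on at least 1 array in blue, 1 array per stage and no floor applied. Slc2a1 and Ldha are lowest at P3, Slc2a3 and Ldhb are already low at E18, Pfkl is lower at both steps by 2 of its 3 probe sets, and Pdk4 reaches 10.7 times its E16 value.

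Of 9 hypoxia targets measured at E18 against E16, 3 were called higher and 0 lower, against 8.1% and 8.14% of all genes. Of 8 at P3 against E18, 3 were called lower and 0 higher, against 11.8% and 4.07%. Ankrd37, Ndrg1 and Higd1a made up both counts. Ankrd37, an ankyrin repeat gene used as a marker of HIF-1 activity, had ratios of 1, 2.21 and 0.742. With the floor doubled its calls ended at both steps (0.83 and -0.83 on the log2 scale). Ndrg1, induced by hypoxia and by differentiation, had ratios of 0.522, 2.32 and 1, and was 4.45-fold higher at E18 and 2.32-fold lower at P3. A second Ndrg1 probe set gave 1.93-fold and 1.75-fold, but 2 others were higher at P3 than at E18 (1.05-fold, and at least 1.14-fold). Higd1a, a mitochondrial protein that protects cells at low oxygen, had ratios of 1, 2.51 and 0.664. Its other 2 probe sets were lower at E18 than at E16, by 2.35-fold and at least 1.43-fold. Both of them were highest at E16, so the E18 maximum of Higd1a rested on its brightest probe set.

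The remaining 6 hypoxia targets were not called at any step with the floor of 82. Vegfa, the main growth factor of blood vessels, had ratios of 1.07, 0.976 and 1, and no difference above 1.10-fold. Bnip3, which marks mitochondria for removal, had ratios of 0.947, 1.32 and 1. Egln1 (PHD2), the main oxygen sensor that marks HIF-alpha for breakdown, had ratios of 1, 0.927 and 1.12. Vegfa, Bnip3 and Egln1 all differed by at most 1.40-fold between any 2 arrays. Egln3 (PHD3), a sensor that HIF itself induces, had ratios of 1, 1.24 and 0.417, and its P3 signal, below the floor, was under that of E18 by at least 1.80-fold. Without a floor its log2 difference at P3 was -1.57 against E18 and -1.26 against E16, both past 2-fold. Adm, which encodes the vessel-dilating peptide adrenomedullin, had ratios of 0.994, 1.10 and 1. Car9, a cell-surface carbonic anhydrase that is among the most HIF-dependent genes, had ratios of 1.30, 0.297 and 1, but reached the floor at E16 alone, which leaves only a bound of at least 1.13-fold lower at E18 (-2.13 on the log2 scale without a floor).

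Among 7 measured regulators of the pathway, 0 were called at P3 against E18 (median -0.39), 1 was lower at E18 against E16 (Hif3a, 2.70-fold; list median -0.82), and 1 was higher and 2 lower at P3 against E16 (list median -0.79). Each of these counts is within 1 gene of the share over all genes, 8.14% lower at E18 against E16, and 15.6% lower and 6.57% higher at P3 against E16. In that last comparison, Epas1, which encodes HIF-2 alpha, was 2.32-fold higher, Egln2, another oxygen sensor gene, was 2.47-fold lower and Hif3a at least 3.87-fold lower. Hif1a, whose protein is mainly controlled by breakdown, had ratios of 1.06, 1 and 0.694, and was 1.06-fold lower at E18 and 1.44-fold lower at P3. Other Hif1a probe sets gave 1.28-fold higher and 1.62-fold lower at E18, and 1.42-fold lower and 1.67-fold higher at P3. Hif1an, which hydroxylates HIF-alpha, Vhl, its ubiquitin ligase, and the partner subunit Arnt stayed under 2-fold by their brightest probe sets, and Arnt2 was below the floor. Vhl was 1.88-fold lower at E18 than at E16 by its brightest probe set and at least 1.88-fold higher by another, which reached the floor at E18 alone. Other Arnt probe sets differed from this at P3 against E16, from 1.20-fold to 2.24-fold higher where the brightest was 1.49-fold lower. For Hif3a over the same interval, other probe sets gave at least 1.65-fold lower, 1.28-fold higher and 1.03-fold higher.

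Further hypoxia targets had 4 of 14 called higher and 1 lower at E18 against E16 (median 0.54), and 4 lower and 1 higher at P3 against E18 (median -0.51). The shares over all genes were 8.1% and 8.14%, then 11.8% and 4.07%. Fam162a, a hypoxia-induced mitochondrial protein, had ratios of 1, 2.82 and 0.591, the same order as Ankrd37, although a second probe set was 1.15-fold lower at E18. Ak4, a mitochondrial adenylate kinase, was 4.15-fold lower at P3 than at E18 (3.69-fold by a second probe set). Tfrc, the transferrin receptor, was lower at P3 against E16 by 4.36-fold, and Stc2, a secreted stanniocalcin, was 3.65-fold higher (by 2.16-fold and 1.79-fold with the remaining probe sets). This list thus held genes of both directions at P3.

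Among 8 measured carriers and carrier chaperones outside the main set, 2 were called higher and 2 lower at P3 against E16, where 6.57% of all genes were higher and 15.6% lower. Slc2a12 (GLUT12) had ratios of 0.334, 1 and 2.002 and was higher at both steps, 5.98-fold in all. At P3 against E16 this was opposite to Slc2a1 and Slc2a3. At E18 against E16 Slc2a12 was 2.99-fold higher, the direction of the brightest Slc2a1 probe set. Of the chaperones that bring monocarboxylate carriers to the membrane, Bsg (basigin) had ratios of 0.394, 1 and 1.71, and Emb (embigin) 4.99, 1 and 0.599. Bsg was 4.34-fold higher and Emb 8.33-fold lower at P3 than at E16 (6.14-fold by a second probe set), so that the pair went opposite ways. The lactate and pyruvate carrier gene Slc16a7 (MCT2) was 1.66-fold higher at E18 than at E16, and its P3 signal lay below the floor, a decrease from E18 of at least 3.77-fold.

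The medians of neighbouring pathways at P3 against E18 ranged from -0.94 for the pentose phosphate pathway to 0.32 for glycogen and gluconeogenesis, where 11.8% of all genes were called lower and 4.07% higher. Further glycolysis genes had 1 of 11 called lower and 0 higher (median -0.19), which was Bpgm, 2.42-fold (1.10-fold lower and 1.02-fold higher by 2 other probe sets); Galm, galactose mutarotase, was 2.30-fold higher at E18 than at E16, against 1.14-fold by another probe set. Citric acid cycle genes had 0 of 15 called at P3 against E18 (median -0.71), with 13 of 15 below 0. At P3 against E16, the cycle genes Sdha, Ogdh and Sucla2 were 2.54-fold, 2.19-fold and 2.01-fold lower, although Sdha was 2.21-fold lower and 1.05-fold higher by 2 other probe sets, and Mdh2 was 2.08-fold higher at E18 than at E16 (1.37-fold by another probe set). The pyruvate dehydrogenase list had 1 of 10 lower at P3 against E18 (median -0.62), the core subunit gene Dlat at 2.04-fold, 1.77-fold lower and 1.02-fold higher by 2 other probe sets. Dld, which encodes another core subunit, was lower at P3 against E16 by 2.67-fold. Of the phosphatases that switch the complex back on, Pdp1 was lower at P3 against E16 by 2.53-fold (1.06-fold by another probe set), and Pdp2 was 2.003-fold higher at E18 than at E16. In the pentose phosphate pathway 3 of 6 were lower at P3 than at E18 (median -0.94), namely Pgls at 2.41-fold, Taldo1 at 2.39-fold and Tkt at 2.21-fold (1.55-fold by another probe set). The glycogen and gluconeogenesis list had 0 of 10 called at this step (median 0.32), and at P3 against E16 the glycogen synthase gene Gys1 was 2.78-fold lower and Pck2, a mitochondrial enzyme of gluconeogenesis, 2.76-fold higher (3.12-fold by another probe set).

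Markers of dividing cells were lower together with the glycolysis genes. At P3 against E18, 13 of 15 were called lower and 0 higher (median -1.76), against 11.8% and 4.07% of all genes (median -0.15). At E18 against E16, 0 of 15 were called in either direction (median -0.08). Over all genes 8.14% were lower and 8.1% higher there (median -0.04). The part of dividing cells in the lower glycolysis values at P3 was not tested.

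**Figure D4:**
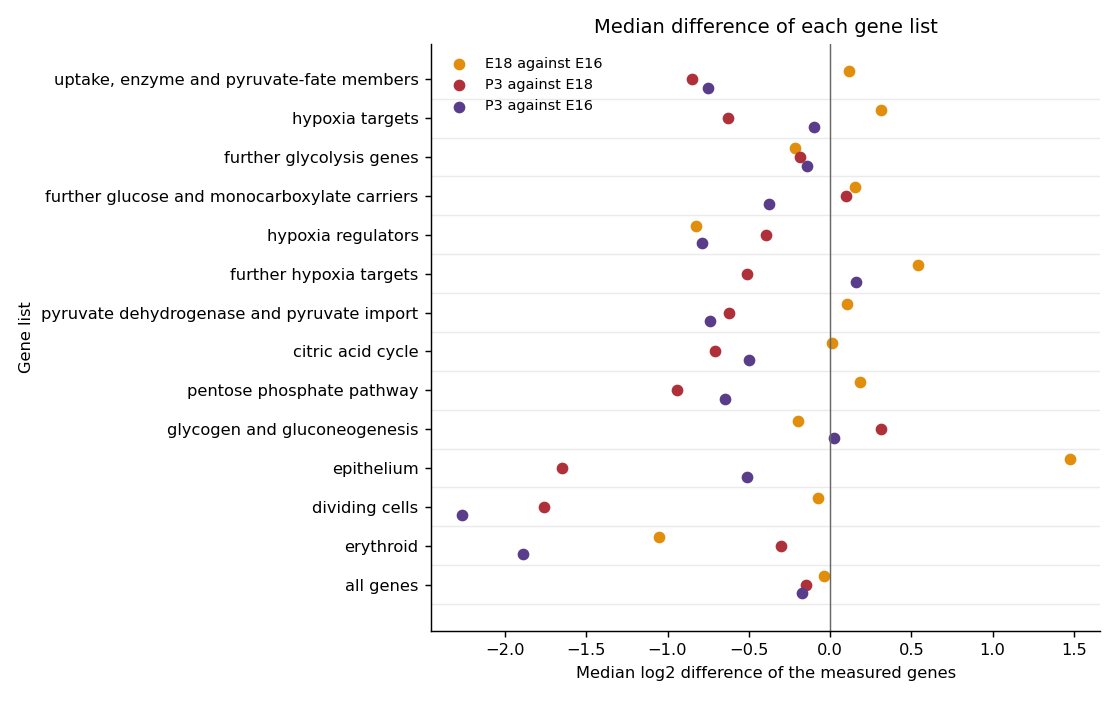
Median log2 difference (horizontal) of the measured genes of each list (vertical) in the 3 comparisons, 1 array per stage. The members' lists lie at -0.85 and -0.63 for P3 against E18, where citric acid cycle genes lie at -0.71, epithelial markers at -1.65, dividing cell markers at -1.76 and all genes at -0.15.

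HIF binds a core sequence of ACGTG or GCGTG, and promoters of the genes with large differences are shown here for that reason. RefSeq promoters (build GRCm38.p6) were matched by symbol for 31 of the 33 genes; Slc2a3 and Ndrg1 were without an entry. Only the 250 bases before each annotated start were searched, on both strands, so that the other strand's copy reads CACGT; the palindrome CACGTG holds both and was counted as 1 match. ACGTG stood in at least 1 promoter of 17 of the 31 genes (54.8%), against 22.5% of 14453 genes named on the array. The list was chosen to hold hypoxia targets, so this share describes the list and not the arrays. By promoter the shares were 20 of 45 (44.4%), against 19.5% of 18110 promoters of genes on the array and 16.6% of all 32851 promoters of the same length. GCGTG, searched on both strands as well, stood in those of 21 of the 31 genes (67.7%), against 42.5% of the genes on the array. At P3 against E18, 6 of 15 measured genes holding ACGTG were called lower (median -0.85) and 4 of 11 without it (median -0.42). The promoters of Ldha (chr7:46845554-46845803, plus strand), Pgk1 (chrX:106186850-106187099, plus strand) and Slc2a1 (chr4:119108495-119108744, plus strand), genes lower at P3, held 3, 2 and 1 matches, and that of Pdk4 (chr6:5496279-5496528, minus strand), higher at P3, held 0 of ACGTG. In these windows GCGTG occurred 0 times in Ldha and Pgk1 and 1 time each in Slc2a1 and Pdk4, so the contrast with Pdk4 is of the first form only. Each is given 5' to 3' on the gene's strand, with the ACGTG matches in capitals.
Ldha: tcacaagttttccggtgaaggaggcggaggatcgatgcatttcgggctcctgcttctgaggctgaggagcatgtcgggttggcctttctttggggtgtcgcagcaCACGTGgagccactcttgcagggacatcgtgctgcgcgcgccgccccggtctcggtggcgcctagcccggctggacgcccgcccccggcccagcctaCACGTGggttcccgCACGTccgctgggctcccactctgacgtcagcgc
Pgk1: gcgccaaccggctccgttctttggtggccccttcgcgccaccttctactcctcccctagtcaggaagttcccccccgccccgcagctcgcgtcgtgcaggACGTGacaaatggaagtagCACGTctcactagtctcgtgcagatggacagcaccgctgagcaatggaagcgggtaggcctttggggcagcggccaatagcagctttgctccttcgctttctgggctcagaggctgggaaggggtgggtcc
Slc2a1: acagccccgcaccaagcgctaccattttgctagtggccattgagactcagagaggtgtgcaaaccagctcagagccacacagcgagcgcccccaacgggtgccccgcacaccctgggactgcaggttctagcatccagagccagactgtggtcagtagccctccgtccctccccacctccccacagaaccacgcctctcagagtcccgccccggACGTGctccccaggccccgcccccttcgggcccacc
Pdk4: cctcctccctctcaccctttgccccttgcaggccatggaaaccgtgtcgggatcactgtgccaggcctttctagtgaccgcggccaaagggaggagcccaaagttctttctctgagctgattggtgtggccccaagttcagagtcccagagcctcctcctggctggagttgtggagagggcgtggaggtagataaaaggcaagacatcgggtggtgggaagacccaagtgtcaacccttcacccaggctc
The Ldha matches begin 145, 48 and 34 bases before the start, the first 2 as CACGTG, and those of Pgk1 150 and 131 bases before it. Ldha has a second annotated start whose promoter held 0 matches. A match describes these letters only, and Tpi1 and Pfkl, both called lower at P3, held 0 of ACGTG in this window, Pfkl 1 of GCGTG.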

How the data were processed

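RNA of 3 pooled samples, 1 per stage, was measured on 1 array each; the labels' ages gave the groups. The deposited values are ratios. Per the submitters' processing notes GCOS was used; its version, the scaling and the centring are not given in the sources here. From the values, the authors' deposited ratios had a middle of 1 in 90.4% of 45101 probe sets, and the other 4347 lay on whole steps, 1 size per array. The steps gave scaling factors of 0.718 (E16) and 1.08 (E18) relative to P3.

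Signals were recovered as the smallest set of whole steps (0.1 units) matching all 3 ratios within a relative 3e-07. A true signal is never below the recovered one, and for bright probe sets a solution may be chance. An understated probe set can fall below the floor or be passed over as the brightest. The design had assumed signals, but the file holds ratios. The ratios themselves give every difference with both arrays at or above the floor. Recovered signals set the floor (their pooled median, 82), the brightest probe set, the cutoff for bright genes, the marker sums and every bound. Quantile normalization also ranked recovered signals. A bound is the recovered signal of the higher array over the floor. The bacterial control probe sets reached at most 70.2. Gene names came from the platform annotation, in which 34958 probe sets have 1 symbol and 932 several; 0 symbols changed when updated.

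Members and lists were chosen with earlier results of these data known. All members could be named; of other lists, up to 4 genes at least 2-fold different in any comparison and all regulators. The recovery was tested on simulated data, and the outcome is not reported here. Alternatives varied scaling, floor, probe set choice and threshold. Python 3.11.15, numpy 2.4.6 and pandas 2.3.3 were used. The precision is limited by the 3 arrays.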

Additional observations from a re-analysis of the deposited data

How the results depend on the processing

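No paired analysis was possible because each stage has 1 array. Halving or doubling the floor kept each count of members within 1.5 times the reported one, although doubling it ended the calls of Pdk4 and Ankrd37 at E18 against E16 and of Ankrd37 at P3 against E18. Scaling mattered at P3: quantile normalization gave medians of -0.43 (P3 against E18) and -0.26 (P3 against E16), median scaling -0.14 (P3 against E16), and both gave 2 genes higher at P3 against E16. The median of all genes moved with them, from -0.15 to 0.03 at P3 against E18 under both, and from -0.17 to 0.02 and 0.09 at P3 against E16. Higher genes made up 29.6% of all genes past 2-fold at P3 against E16 with the values as deposited, 48.6% with quantile normalization and 51.6% with median scaling. At P3 against E18 these shares were 25.7%, 47.3% and 43.4%, and at E18 against E16 49.9%, 52.5% and 59.9%. Without a floor, 2 genes were higher at P3 against E18, where 1802 of 18194 of all genes were.

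Taking the median over probe sets gave 2 genes higher at E18 against E16, a median of -0.56 at P3 against E18, and turned Higd1a to -0.52 at E18 against E16. Leaving out probe sets ending in _s_at, _x_at or _a_at, which leaves 18 or 19 genes, gave 2 higher and 1 lower at E18 against E16, 4 lower at P3 against E18, and 3 lower with a median of -0.29 at P3 against E16. It turned Slc2a1 (-1.27), Pfkl (0.50) and Pdk1 (-0.44) at E18 against E16, and Pdk1 (0.46) and Ndrg1 (0.070) at P3 against E18. At a 1.5-fold threshold, 5 genes were lower at E18 against E16, 17 at P3 against E18 and 13 at P3 against E16, where 2 were higher. Over all genes at this threshold, 2399 of 12032, 3111 of 12116 and 3663 of 12193 were lower, and 1650 were higher in the last comparison. The cause of these changes was not tested beyond the fewer genes measured.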
